A study of Mus musculus with 25 samples.

Results

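Transcripts of 10 genes that mark fat cells were followed through 25 mouse hearts, heart by heart. Brown fat was represented by Ucp1, Cidea and Elovl3, and fat cells in general by Adipoq, Plin1, Cidec, Cfd, Lep, Retn and Adrb3. They are 10 of the 56941 genes in the deposited count table, and each matched 1 row. The genes were selected on measured values, because they were high in some of the hearts labelled saline, so their differences between saline hearts and the others are given as a description without a test.

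Brown adipocytes hold many mitochondria and burn fatty acids to make heat, through the uncoupling protein Ucp1 in the inner mitochondrial membrane. White adipocytes store triglyceride in a large droplet coated by Plin1 and Cidec and secrete hormones such as adiponectin (Adipoq), leptin (Lep) and resistin (Retn). In the mouse, fat depots lie close to the heart and great vessels, and noradrenaline released by sympathetic nerves acts on both kinds of fat cell through the beta-3 adrenergic receptor, Adrb3.

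The study asked how lactate metabolism bears on cardiac hypertrophy, in control mice and mice with a knockout of the lactate transporter MCT1. Total RNA from whole heart was depleted of ribosomal RNA and sequenced in 4 WT and 3 MCT1KO hearts labelled as having no pump, 6 WT and 4 MCT1KO hearts labelled saline, and 3 WT and 5 MCT1KO hearts labelled Ang/PE, the neurohormonal agonists used to cause hypertrophy. The labels do not give age, sex, strain, the length of treatment, how or in which cells MCT1 was removed, or how the heart was trimmed. They do not say that each library came from a separate animal, so p-values measure the spread between these libraries.

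Library totals ran from 12216704 to 24880683 counts. Levels are given as counts per 1000000 counts (CPM), after scaling library totals for composition with TMM factors. The targeted gene, Slc16a1, which encodes MCT1, ranged from 150 to 249 CPM in 13 WT hearts and from 132 to 223 CPM in the 12 hearts labelled MCT1KO, so its RNA did not separate the genotypes and each genotype statement rests on the label. The 6 heart muscle markers summed to 38511 to 57374 CPM in the 15 hearts without saline, so the labelled tissue was present. One library, MCT1KO saline heart 4, stood apart, with the lowest heart muscle sum (31729 CPM, against 45571 to 62410 CPM in the other 9 saline hearts) and the highest fat gene levels. Group means, calls and correlations that rest on it are given with and without it.

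The start regions of 3 genes that behaved differently are shown for reference: Ucp1, which varied most between saline hearts, Adipoq, which followed the general fat genes, and Lep, which did not keep pace with them. Each is the 250 bases before the start of the gene, from RefSeq on GRCm38.p6, plus strand, 5′ to 3′. Such regions were searched for 7 of the 10 genes, and Cidea, Elovl3 and Adrb3 were not searched. They lie at chr8:83290098-83290347, chr16:23146286-23146535 and chr6:29059971-29060220 in that order. Capitals mark AGGTCA (a nuclear receptor half-site), TGACG (a cyclic AMP response element half-site) and CCAAT, searched on both strands together with TATAAA.
Ucp1: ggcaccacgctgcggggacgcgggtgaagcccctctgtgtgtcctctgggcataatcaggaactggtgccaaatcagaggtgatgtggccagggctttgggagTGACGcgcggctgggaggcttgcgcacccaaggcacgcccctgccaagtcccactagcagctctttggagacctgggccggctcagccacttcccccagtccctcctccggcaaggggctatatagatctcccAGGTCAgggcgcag
Adipoq: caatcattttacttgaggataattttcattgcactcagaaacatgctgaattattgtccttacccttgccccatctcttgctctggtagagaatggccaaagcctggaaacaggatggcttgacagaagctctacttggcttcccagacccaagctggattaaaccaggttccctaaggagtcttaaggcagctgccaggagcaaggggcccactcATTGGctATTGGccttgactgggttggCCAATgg
Lep: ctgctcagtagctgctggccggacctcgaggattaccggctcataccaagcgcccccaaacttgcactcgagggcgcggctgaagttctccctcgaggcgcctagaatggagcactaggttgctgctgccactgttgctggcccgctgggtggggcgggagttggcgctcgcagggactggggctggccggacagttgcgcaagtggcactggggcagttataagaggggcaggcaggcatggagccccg
The Ucp1 region held AGGTCA 14 bases and TGACG 147 bases before the start. The Adipoq region held CCAAT 3 times, 7 bases before the start on the gene's strand and 27 and 34 bases before it on the other strand. The Lep region held none of the motifs in these letters. Among 32851 mouse regions of the same length, 14% held AGGTCA, 17.8% TGACG, 33.8% CCAAT and 12.4% TATAAA, so each motif is common and a match is a description of the letters only.

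Ucp1, the heat-producing uncoupling protein, was nearly absent outside the saline hearts. It had 0 counts in 12 of the 15 hearts without saline and 1 count in each of WT no pump hearts 1, 2 and 3. In the 6 WT saline hearts it measured 0, 0.627, 0, 8.01, 0 and 0.441 CPM, and in the 4 MCT1KO saline hearts 11.4, 7.53, 0.0625 and 551 CPM. High values were thus found in 4 saline hearts (MCT1KO 1, 2 and 4, and WT 4), while 3 WT saline hearts had none. MCT1KO saline heart 4 held 9337 Ucp1 counts, at least 2008-fold above the level that 3 counts represent in the shallowest of the 15 hearts. In bulk RNA, fewer cells of a type and less RNA per cell cannot be told apart.

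Elovl3, a fatty acid elongase of brown fat, was found almost only in 1 heart. MCT1KO saline heart 4 had 137 counts (8.08 CPM), at least 29.5-fold above the 3-count level, MCT1KO saline heart 2 had 1 count and the other 8 saline hearts had 0. Of the 15 hearts without saline, 1 had a single count. The 3 other saline hearts with clear Ucp1 therefore had at most 1 Elovl3 count each.

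Cidea, a lipid droplet protein used as a brown fat marker, behaved unlike the other brown genes because it was present in every heart. In the 15 hearts without saline it ranged from 11.2 to 17.9 CPM with a median of 12.7 CPM (13.3 ± 1.96, SD, n = 15). The WT saline hearts measured 14.6, 13.5, 12.6, 18.2, 15.5 and 15.5 CPM, within or close to that range. The MCT1KO saline hearts measured 17.9, 18.3, 10.6 and 149 CPM, so that only heart 4 stood clear of it, at 8.30-fold the highest of the 15. Between MCT1KO saline heart 1 and WT saline heart 6 Cidea differed by a factor of 1.2 (95% exact interval 0.989 to 1.35), where Ucp1 differed by a factor of 25.9 (13.4 to 57.3). These and all later intervals cover counting error only.

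Adipoq, the secreted hormone adiponectin, had at most 3 counts in any heart without saline. In the WT saline hearts it measured 0, 0.0627, 0.162, 4.80, 0.511 and 1.76 CPM, and in the MCT1KO saline hearts 7.40, 5.56, 0.125 and 123 CPM. Heart 4 of the latter held 2087 counts, at least 449-fold above the 3-count level. The same hearts led as for Ucp1, but WT saline hearts 5 and 6, with 0 and 9 Ucp1 counts, held 9 and 36 Adipoq counts.

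Plin1 and Cidec, which coat the lipid droplet, followed Adipoq. Plin1 measured 0.116, 0.627, 0.379, 10.3, 1.48 and 3.33 CPM in the WT saline hearts and 17.4, 9.62, 0.5 and 257 CPM in the MCT1KO saline hearts. Cidec measured 0.116, 0.376, 0.162, 5.36, 1.36 and 2.16 CPM in the WT and 7.82, 5.69, 0.187 and 136 CPM in the MCT1KO saline hearts. Their highest values among the 15 hearts without saline were 0.280 and 0.357 CPM, and MCT1KO saline heart 4 exceeded these 920-fold and 381-fold.

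Cfd encodes the serine protease adipsin, which fat cells secrete. It measured 0.291, 0.564, 0.217, 11.7, 2.89 and 7.99 CPM in the WT saline hearts and 34.5, 26.0, 0.875 and 380 CPM in the MCT1KO saline hearts. The 15 hearts without saline had a median of 0.450 CPM and a maximum of 1.05 CPM. The 3 lowest WT saline hearts and MCT1KO saline heart 3 did not exceed that maximum.

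The hormones Lep and Retn and the receptor Adrb3 completed the general genes. Lep measured 0, 0.0627, 0, 0.508, 0.170 and 0.196 CPM in the WT saline hearts and 1.06, 0.0654, 0 and 1.36 CPM in the MCT1KO saline hearts, against 1 count in 1 of the 15 hearts without saline. Retn measured 0.0581, 0, 0, 0.959, 0.170 and 1.13 CPM in the WT and 2.32, 1.11, 0.0625 and 15.3 CPM in the MCT1KO saline hearts. Adrb3 measured 0, 0.0627, 0.0541, 0.846, 0.113 and 0.931 CPM in the WT and 2.59, 1.57, 0.125 and 37.2 CPM in the MCT1KO saline hearts. Outside saline, Retn reached 0.0914 CPM and Adrb3 reached 0.180 CPM. Lep was the one gene for which MCT1KO saline heart 4 lay close to another heart, at 1.28-fold heart 1 (0.674 to 2.47).

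**Figure D1:**
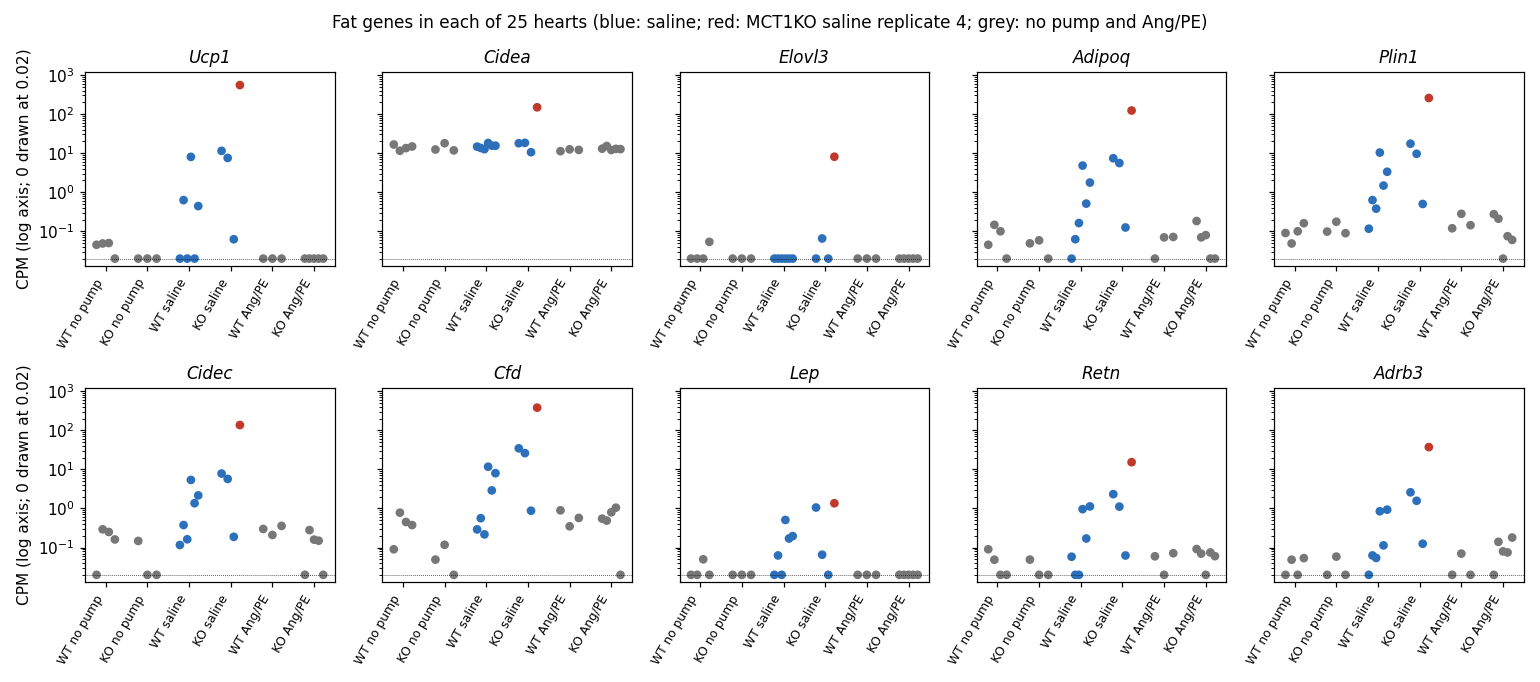
Level of each of the 10 fat genes in 25 hearts, in CPM on a log axis, with 0 drawn at 0.02 on the dotted line; each point is 1 heart, and the 6 groups are on the horizontal axis. Cidea lies between 10.6 and 18.3 CPM in every heart but MCT1KO saline heart 4 (149 CPM), whereas Ucp1 is at 0 in 12 of the 15 hearts without saline and reaches 551 CPM in that heart.

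Per kilobase of transcript, the order of levels in MCT1KO saline heart 4 began with Cfd (412 CPM per kb), Ucp1 (337), Cidea (133), Adipoq (95.3), Plin1 (91.3) and Cidec (79.2). Retn (13.4), Adrb3 (13.3), Elovl3 (4.30) and Lep (0.416 CPM per kb) came last. No spread between replicates can be given for this single heart, so neighbours in the order are not separated by a test.

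The saline hearts differed in the balance of brown and general fat genes. The 7 general genes summed to 0.581, 1.76, 0.975, 34.5, 6.69 and 17.5 CPM in the WT saline hearts and to 73.2, 49.7, 1.87 and 950 CPM in the MCT1KO saline hearts. In the 15 hearts without saline the 7 genes together had 2 to 28 counts per heart. WT 1, 2 and 3 and MCT1KO 3 thus held little or none of the general fat signal, and the other 6 ran from 6.69 to 950 CPM.

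Within those 6 hearts the ratio of Ucp1 to Adipoq counts fell into separate ranges. It was 4.47 (95% exact interval 4.27 to 4.69) in MCT1KO saline heart 4. It was 1.54 (1.24 to 1.92) in MCT1KO heart 1, 1.35 (1.01 to 1.81) in MCT1KO heart 2 and 1.67 (1.27 to 2.21) in WT heart 4, whose intervals overlap one another but not that of heart 4. WT heart 6 had 0.250 (0.106 to 0.529) and WT heart 5 had 0 Ucp1 for 9 Adipoq counts, which allows a ratio of up to 0.507. WT saline heart 6 thus held general fat transcripts with little Ucp1. Against Plin1 in place of Adipoq the order was the same at both ends, with 2.14 (2.07 to 2.22) in MCT1KO heart 4, 0.655 to 0.782 in the 3 middle hearts and 0.132 (0.058 to 0.266) in WT heart 6.

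Elovl3 also differed in its balance with Adipoq, at 6.56 (5.48 to 7.81) counts per 100 Adipoq counts in MCT1KO saline heart 4. MCT1KO heart 1 had 0 for 140 Adipoq counts, which allows up to 2.67 per 100, and WT heart 4 had 0 for 85, which allows up to 4.44 per 100. The Elovl3 share in these hearts was therefore below that of heart 4 beyond counting error, while MCT1KO heart 2, with 1 count for 85, could not be separated from it (0.0294 to 6.73 per 100). WT saline heart 2 had 10 Ucp1 counts and 1 Adipoq count, a ratio of 10 (1.4 to 434) that is too uncertain to place.

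The ratios among general fat genes varied less for the droplet proteins. Plin1 per Adipoq ran from 1.73 to 2.89 in the 6 hearts, with overlapping intervals. Cidec per Adipoq ran from 1.02 to 1.22 in 5 of them and was 2.67 (1.20 to 6.52) in WT heart 5. Cfd per Adipoq was 3.08 (2.93 to 3.24) in MCT1KO heart 4 and 2.44 (1.88 to 3.17) in WT heart 4, lower than the 4.67 (3.89 to 5.65) of MCT1KO heart 1 and the 4.68 (3.70 to 5.99) of MCT1KO heart 2. Lep was low relative to Adipoq in the heart with most fat RNA, at 1.10 (0.697 to 1.66) counts per 100 Adipoq counts in MCT1KO heart 4, against 14.3 (8.47 to 22.9) in MCT1KO heart 1 and 10.6 (4.68 to 21.1) in WT heart 4. MCT1KO heart 2, with 1 Lep count, was also low at 1.18 (0.0294 to 6.73). Retn per 100 Adipoq counts was 12.4 (10.9 to 14.1) in MCT1KO heart 4, below the 31.4 (21.9 to 44.4) of MCT1KO heart 1 and the 63.9 (36.1 to 111) of WT heart 6 but not separable from WT heart 4 and MCT1KO heart 2, whose intervals both ran from 11.1 to 33.9. Adrb3 per 100 Adipoq counts was 30.2 (27.6 to 33.0) in MCT1KO heart 4 and 35.0 (24.7 to 48.8) in MCT1KO heart 1, which overlap.

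**Figure D2:**
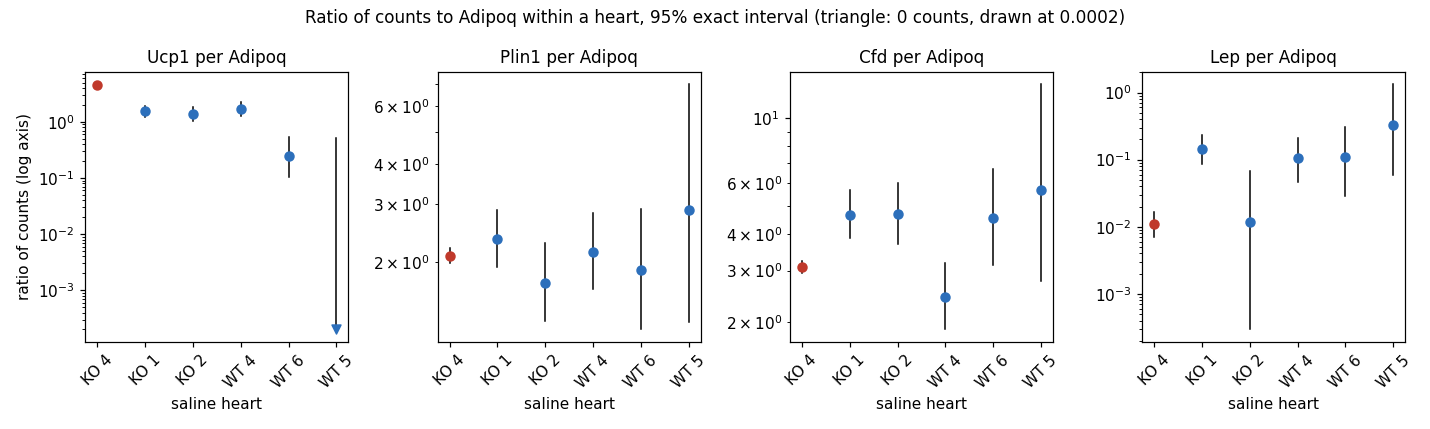
Counts of Ucp1, Plin1, Cfd and Lep per Adipoq count within each of the 6 saline hearts with 9 or more Adipoq counts, on log axes; points are ratios, lines are 95% exact intervals, and a triangle marks 0 counts. Ucp1 per Adipoq spans 0.250 to 4.47 where it was detected, Plin1 per Adipoq only 1.73 to 2.89, and Lep is lowest in MCT1KO hearts 2 and 4.

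From MCT1KO saline heart 1 to heart 4, the genes differed in how far apart they were. Ucp1 was 48.3-fold higher in heart 4 (42.2 to 55.5), more than any general gene. Cidec was 17.4-fold (14.8 to 20.7), Adipoq 16.6-fold (14 to 19.9), Plin1 14.7-fold (13.2 to 16.5), Adrb3 14.4-fold (10.7 to 19.6), Cfd 11-fold (10.1 to 11.9) and Retn 6.57-fold (4.76 to 9.27) higher. The other brown genes differed from each other. Cidea was 8.31-fold (7.41 to 9.33) higher. In heart 1 it measured 17.9 CPM, within its range of 11.2 to 17.9 CPM in the 15 hearts without saline. Its fold is therefore over a level also seen in hearts with little fat RNA, and it is not ranked with the general genes. Elovl3 had 137 against 0 counts, a fold of at least 40.9, which lies above the interval of every general gene. These folds compare 2 libraries, not conditions.

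The summed level of markers of another part of the heart largely moved with the fat genes. The 5 atrial muscle genes (Myl7, Myl4, Sln, Bmp10 and Stard10) reached a sum of 20.6 CPM in the 15 hearts without saline. In the saline hearts they summed to 16.5, 40.3, 772, 1449, 169 and 737 CPM in the WT hearts and to 744, 861, 15.7 and 3996 CPM in the MCT1KO hearts. Myl7, the atrial myosin light chain, reached 0.785 CPM outside saline, and in the saline hearts it ranged from 0 (MCT1KO 3) to 1357 CPM (MCT1KO 4). The 2 saline hearts at the level of the others, WT 1 and MCT1KO 3, also held little fat RNA. WT saline heart 3, with 772 CPM of atrial genes and 3 Adipoq counts, broke the pattern, while WT heart 6 (737 CPM, 36 Adipoq counts) and MCT1KO heart 1 (744 CPM, 140 Adipoq and 216 Ucp1 counts) had about the same atrial sum. Bmp10 did not follow the sum. It was 1.32 CPM in MCT1KO saline heart 1 and 1.48 CPM in WT saline heart 5, against 217 CPM in WT heart 3 and 169 CPM in WT heart 6. In MCT1KO heart 4 it was 134 CPM, below the 236 CPM of WT heart 4. The part of atrial tissue in the fat signal was not tested.

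**Figure D3:**
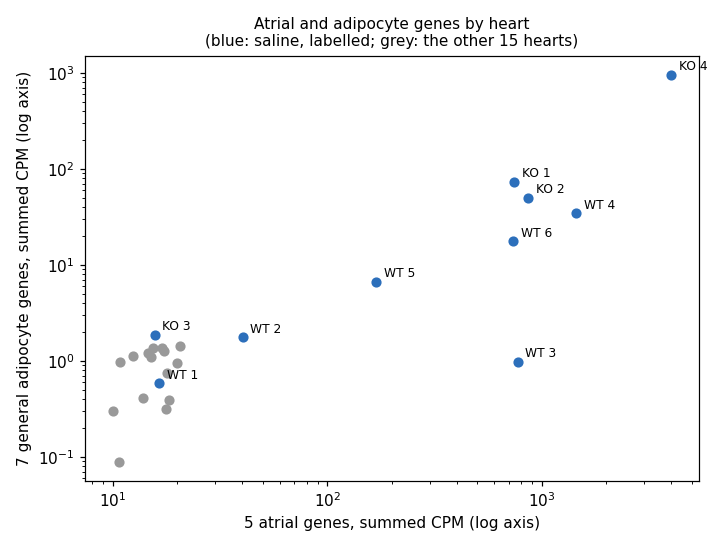
Summed CPM of 7 general fat genes against summed CPM of 5 atrial genes in 25 hearts, both axes log; each point is 1 heart, blue and labelled for the 10 saline hearts and grey for the other 15. WT heart 3 has an atrial sum of 772 CPM with a fat sum of 0.975 CPM, far below MCT1KO heart 1 (744 and 73.2 CPM).

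Other cell types were followed with marker sums. Mesothelial genes reached 116 CPM in MCT1KO saline heart 4, against 6.48 to 35.3 CPM in the 15 hearts without saline. The next highest saline hearts were WT 4 (38.9 CPM), WT 6 (32.8), MCT1KO 1 (31.5) and MCT1KO 2 (31.4). The remaining saline hearts ran from 8.28 to 19.7 CPM, and the part of mesothelium was not tested. The 4 autonomic neuron genes summed to 7.37 CPM in that heart, to 2.19 to 4.85 CPM in the other saline hearts and to 1.02 to 4.04 CPM in the 15 others, and their part was not tested. Dbh, the enzyme that makes noradrenaline from dopamine and the most abundant of the 4, was 3.48 CPM in that heart, below the 4.63 CPM of WT saline heart 4. Th, the rate-limiting enzyme of noradrenaline synthesis, was 1.53 CPM in that heart, against up to 0.106 CPM in the other saline hearts and up to 0.0600 CPM in the 15 others. Thymus markers reached 2.55 CPM in saline and 4.07 CPM elsewhere, with Rag2 at 0 in all 25 hearts, and lung epithelial markers did not exceed 0.21 CPM in any heart. B lymphocyte markers reached 5.07 CPM in MCT1KO saline heart 4 and 4.96 CPM outside saline, and skeletal muscle markers 3.48 and 2.86 CPM. Myl2, a ventricular light chain, was 839 CPM in MCT1KO saline heart 4 and from 3489 CPM upward in every other heart.

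Other genes of fat cells were taken from 3 lists of 44 genes (11 brown adipocyte, 26 general adipocyte and 7 adrenergic lipolysis genes), chosen with earlier results of these data known. In MCT1KO saline heart 4, Fasn (fatty acid synthase) measured 4055 CPM, against 38.5 to 82.6 CPM in the 15 hearts without saline, and Scd1, a fatty acid desaturase, 3428 CPM, against 17 to 33.6 CPM. Fasn was named after its values were seen. Otop1, a proton channel of brown fat, was 42.2 CPM, and the other 9 saline hearts ranged from 0 to 1.07 CPM. Several genes that heart muscle shares with fat were not higher in that heart. Lpl measured 1960 CPM and Cd36 794 CPM, below their ranges of 2867 to 4544 and 981 to 2425 CPM in the 15 hearts. Ppargc1a (112 CPM) also lay below its range of 136 to 300 CPM, and Prdm16 (29.8 CPM) lay within 20.4 to 43.0 CPM. Dio2, the thyroid hormone-activating deiodinase, was 45.1 CPM in that heart, but reached 61.0 CPM among the hearts without saline.

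For each saline heart, the number of the 40 tested genes of these lists above every one of the 15 hearts without saline was set beside the same share of all 17682 tested genes, which is the background here. In the WT hearts it was 2, 5, 2, 13, 3 and 9 of 40, with backgrounds of 4.49%, 9.67%, 10.2%, 6.09%, 4.68% and 7.43%. In the MCT1KO hearts it was 14, 10, 3 and 28 of 40, with backgrounds of 7.75%, 7.8%, 3.52% and 20%. The shares in WT 1, 2, 3 and 5 and MCT1KO 3 lay near their background, and those in WT 4 and 6 and MCT1KO 1, 2 and 4 lay above it. Some of the 40, among them Otop1, Slc27a2 and Acvr1c, passed the filter on low counts only through saline hearts, so these shares are a description. The 10 genes themselves, which were selected on this contrast, numbered 0, 4, 1, 9, 6 and 8 in the WT and 8, 10, 2 and 10 in the MCT1KO hearts. Some of these rest on 1 count: Lep in WT heart 2, Elovl3 and Lep in MCT1KO heart 2, and Ucp1 in MCT1KO heart 3.

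**Figure D4:**
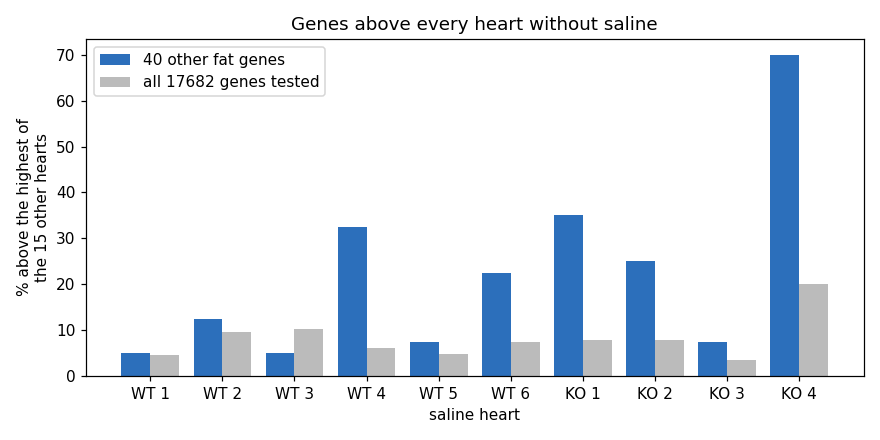
Percentage of the 40 tested other fat genes (blue bars) and of all 17682 tested genes (grey bars) whose level in a saline heart exceeded every one of the 15 hearts without saline. MCT1KO heart 4 has 28 of the 40 against a background of 20%, and WT hearts 1, 2, 3 and 5 lie near theirs.

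The contrasts without saline hearts were fitted with edgeR's quasi-likelihood test, Benjamini-Hochberg adjusted over all 17682 genes tested and called at an adjusted p below 0.05. Of the 10 genes, 8 passed the filter on low counts, all but Cidea and Cfd only through their saline hearts, and Elovl3 and Lep did not. Those 6 had 0 to 6 counts in every heart of these contrasts and Cfd 0 to 16, so the fit carries little for them and bears mainly on Cidea. Cidea differed between MCT1KO and WT by a log2 fold change of -0.01 with a standard error of 0.57 without a pump (edgeR adjusted p = 0.997) and of 0.14 with a standard error of 0.57 under Ang/PE (0.975). Between Ang/PE and no pump it differed by -0.24 with a standard error of 0.58 in WT (edgeR adjusted p = 0.941) and by -0.09 with a standard error of 0.55 in MCT1KO (0.976). The fit includes MCT1KO saline heart 4, which is in none of these contrasts. Without that heart the standard errors of Cidea were smaller. Between genotypes it then differed by -0.01 (standard error 0.17) without a pump and by 0.14 (0.17) under Ang/PE. Between Ang/PE and no pump it differed by -0.23 (0.17) in WT and by -0.09 (0.16) in MCT1KO, and none was called. With all hearts, none of the 8 was called in these 4 contrasts by edgeR or DESeq2, and 0 had an unadjusted p below 0.05 with edgeR. Of all genes, edgeR called 0.0% between genotypes without a pump, 0.0% between genotypes under Ang/PE, 0.0% between Ang/PE and no pump in WT and 0.503% in MCT1KO. DESeq2 called 24, 5, 25 and 385 of all genes in the same order. In the last of these contrasts 1 of the 8 had an unadjusted p below 0.05 with DESeq2.

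Between genotypes under saline, the group means differed widely and the hearts overlapped. Ucp1 averaged 142 ± 272 CPM in MCT1KO (SD, n = 4) and 1.51 ± 3.19 CPM in WT (SD, n = 6), and without MCT1KO saline heart 4 the MCT1KO mean was 6.33 CPM. Cidea averaged 48.9 ± 66.7 CPM in MCT1KO (SD, n = 4) and 15 ± 1.92 CPM in WT (SD, n = 6), and 15.6 CPM in MCT1KO without heart 4. Adipoq averaged 34 ± 59.4 CPM in MCT1KO (SD, n = 4) and 1.22 ± 1.87 CPM in WT (SD, n = 6), and 4.36 CPM in MCT1KO without heart 4. MCT1KO saline heart 3 lay below WT saline heart 4 for 9 of the 10 genes, and both had 0 Elovl3 counts. The selection used these same saline values, so no fold change or p is given. The edgeR fit called 0 of the 8 and 0.0% of all genes, and DESeq2 called 5, among 146 of all genes. Without MCT1KO hearts 1, 2, 3 or 4 the edgeR count was 1, 6, 7 or 0. The selection bears on all these counts, and nothing is read from them.

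The other fat genes were counted in the saline contrasts, where both contrasts of a genotype share its saline hearts. Their lists were drawn up with the fat signal of the saline hearts known, so these counts describe how far it extends and are not independent evidence of its direction. Some of the 40, among them Slc27a2, Acvr1c and Otop1, passed the filter on low counts only through saline hearts. These 3 reached at most 0.491, 0.419 and 0.0499 CPM in the 15 hearts without saline. The fits without a heart kept the same filter, so for such genes the share over all genes is not a neutral comparison. In MCT1KO hearts, 15 of the 40 tested were lower under Ang/PE than under saline and 0 higher, against 4.46% of all genes called. They were 13 general fat genes, 1 brown fat gene (Slc27a2, a fatty acid transporter and acyl-CoA synthetase) and 1 lipolysis gene (Prkar2b, a regulatory subunit of protein kinase A). Most of these calls rested on MCT1KO saline heart 4. Without it 2 of the 40 were called, Slc27a2 and Pck1, both lower, among 46 of all genes, and the median log2 fold change of the 40 went from -0.75 to -0.19 (-0.01 over all genes in both fits). Pck1, which serves glyceride-glycerol synthesis in fat, changed by -9.76 on the log2 scale with that heart and by -5.90 without it. The carbonic anhydrase Car3 changed by -8.45 with it and measured -5.36, not called, without it. Scd1 changed by -5.33 with it and measured -2.02, not called, without it. Acvr1c, an activin-type receptor, changed by -6.01 with it and measured -2.22, not called, without it. Prkar2b changed by -5.00 with it and measured -1.64, not called, without it. Fitted only on the groups compared, 0 of the 40 were called, beside 1 of all genes. DESeq2 with all hearts called 19 of the 40, 17 lower and 2 higher, among 1224 of all genes.

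Saline against no pump in MCT1KO hearts had a median log2 fold change of 0.81 over the 40 genes, beside 0.01 over all genes. Without MCT1KO saline heart 4 that median was 0.14. The edgeR fit called 0 of 40, against 0.00566% of all genes. Of the 40, 22 had an unadjusted p below 0.05 with edgeR, beside 2142 of all 17682 genes, and 16 of the 22 were among the 25 general fat genes. DESeq2 called 12, among 209 of all genes. Without MCT1KO saline heart 3 the edgeR count was 16, so the count of 0 depends on the method and on that library.

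In WT hearts, saline against no pump called 2 of 40, against 6.61% of all genes. Prdm16, a brown fat transcription regulator, was higher by 0.42 with a standard error of 0.11 on the log2 scale, and the fatty acid transporter Cd36 fell by 0.73. These 2 calls were not stable. Leaving out single libraries gave 0 without WT no pump hearts 3 or 4, 1 without WT no pump heart 2 or any of WT saline hearts 1 to 5, and 4 without WT no pump heart 1 or MCT1KO saline hearts 3 or 4. Ang/PE against saline in WT called 0 of 40, against 0.017% of all genes, and 1 without MCT1KO saline hearts 3 or 4. Of the 40, 6 had an unadjusted p below 0.05 with edgeR, beside 3369 of all 17682 genes. DESeq2 called 3, among 644 of all genes.

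The genes whose level over the 10 saline hearts was most like Ucp1 were Cryz, Acsm3, Pck1, Clstn3 and Gja5, with Pearson correlations of log2 CPM from 0.96 to 0.98. Those most like Adipoq were Car3, Tmem45b, Cyp2e1, Lrp8 and Atp6v0e2, with correlations from 0.97 to 0.99. Over the 9 saline hearts without MCT1KO heart 4 the correlations of the same genes were 0.91 to 0.95 for Ucp1 and 0.93 to 0.98 for Adipoq. In MCT1KO saline heart 4 Acsm3 measured 24.5 CPM (up to 1.80 CPM in the other saline hearts) and Car3 888 CPM (up to 54.3 CPM). The gap junction gene Gja5, which atrial muscle uses, measured 107 CPM there and 26.3 CPM in WT saline heart 4, against up to 9.27 CPM in the 15 hearts without saline.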

How the data were processed

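Total RNA from 25 mouse hearts was depleted of ribosomal RNA and made into stranded libraries, per the labels' protocols. The authors deposited read counts per gene for all hearts, in 1 table of 56941 genes with Ensembl identifiers. STAR 2.7.9a, cutadapt 1.16, featureCounts 1.6.3 and DESeq2 1.42.1 are listed, with the builds GRCm39 and mm39, in the submitters' processing notes without a role or order, and strand use in counting is not given in the sources used here. Symbols and transcript lengths came from GENCODE M21, used for names and lengths only; promoter letters are from RefSeq on GRCm38.p6 and were matched by symbol.

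Library totals were 12216704 to 24880683 counts, so 1 count is 0.0447 to 0.0914 CPM, and the floor is 3 counts. Counts were normalized by TMM (factors 0.891 to 1.21) and tested in 1 edgeR model of 6 groups with 19 residual degrees of freedom after a filter on low counts, with Benjamini-Hochberg adjusted p-values, called below 0.05. Intervals of count ratios are exact (Clopper-Pearson, 95%). Log2 CPM used a prior count of 2. The scripts were tested on simulated data.

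The members and gene lists were chosen with earlier results of these data known. Named were all 10 genes, called list genes (at most the 4 of largest log2 fold change per list) and the 5 genes most correlated with Ucp1 and with Adipoq over saline hearts. All 43 replicate pairs of libraries differed beyond sampling noise (chi-square per degree of freedom at least 3.60). Alternatives were RLE factors, no low-count filter, DESeq2 in place of edgeR, a model of the compared groups alone, a block for replicate number, and each heart left out. Python 3.11.15 with scipy 1.17.1, R 4.3.3, edgeR 4.0.16 and DESeq2 1.42.0 were used here.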

Additional observations from a re-analysis of the deposited data

Results flagged for a closer look

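Elovl3 in MCT1KO saline heart 4 was far above the other 3 hearts of its group, at a log2 CPM of 3.04 (137 counts, 8.08 CPM, against at most 1 count in the others). Cfd in MCT1KO Ang/PE heart 5 lay far below the other 4 hearts of its group, at a log2 CPM of -3.10 (0 counts). Of 25 combinations of a gene and a group of hearts examined in this way 2 stood out. The combinations reuse the same groups of hearts, so they are not independent. Chance flags about 1 in 20 such combinations, but Elovl3 was selected on its saline values, so its place there is a description and is not set against chance.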

How the results depend on the processing

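RLE factors moved 0 counts of calls, and 241 of 270 recomputed counts stayed within 1.5 times. Means of the MCT1KO saline group rest on heart 4: without it Ucp1 went from 142 to 6.33 CPM, Adipoq from 34 to 4.36 CPM and Elovl3 from 2.04 to 0.0218 CPM. For MCT1KO against WT under saline, where edgeR called 0 of 8, the replicate block gave 7 (among 115 of all genes). DESeq2 gave 5 (among 146) and leaving out 1 heart gave 0 to 7. Same-numbered hearts did not pair: correlations of their deviations over 30 pairs ran from -0.232 to 0.405, 4 were above 0.1, and in 0 comparisons were all above it. For the other fat genes under saline against no pump in WT (2 of 40), no filter gave 1 and the replicate block 1. Only the groups compared gave 9 (among 2197 of all genes), DESeq2 7 (among 1960) and leaving out 1 heart 0 to 4. In MCT1KO (0 of 40), DESeq2 gave 12 (among 209) and leaving out 1 heart 0 to 16. For Ang/PE against saline in WT (0), only the groups compared gave 5 (among 923), DESeq2 3 (among 644) and leaving out 1 heart 0 to 1. In MCT1KO (15), DESeq2 gave 19 (among 1224) and the replicate block 6 (among 534). Only the groups compared gave 0 (among 1) and leaving out 1 heart 2 to 20. The causes were not tested.

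Depth limits 6 of the 10 genes outside saline, where they had at most 3 counts in any heart. With 3 to 6 libraries a group, and 1 library carrying much of the saline spread, group means describe these libraries and no more.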
